A study of Mus musculus with 12 samples.

Results

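This account compares liver macrophages of sph/sph and wild-type (WT) mice that had both received an agonistic antibody to CD40. The libraries were chosen by genotype and treatment, which gave 3 sph/sph and 3 WT libraries of bulk RNA, 6 of the 12 in the series. The labels give the genotypes as Spta sph/sph and Spta wt/wt and the animals as male mice aged 8 to 10 weeks, and per the series' design text the controls were littermates. A strain is not given in the labels. Both groups received 20 mg/kg of the antibody intraperitoneally, and the interval given is 30 h. The other 6 libraries, 3 of each genotype, came from mice given saline. In the count table the control columns are headed as heterozygous, but the labels all give wild type, and WT is used here after the labels.

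Macrophages were taken from collagenase-digested livers with magnetic beads and an antibody to F4/80, the product of Adgre1, so other liver cells can be present in the preparation. Mice homozygous for the sph mutation have fragile red cells and chronic haemolysis. The macrophages that reside in liver sinusoids, Kupffer cells, take up damaged red cells, split heme with heme oxygenase 1 and return iron to the blood through ferroportin. CD40 is a receptor of the tumour necrosis factor family on macrophages, dendritic cells and B cells, and its ligation activates NF-kB and drives cytokine, chemokine and costimulatory genes. The series' title asks whether uptake of red cells gives liver macrophages an anti-inflammatory program. In RNA from a mixed preparation, fewer cells of a type and less RNA per cell cannot be told apart.

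Depth ran from 15883477 to 18940990 counts in the WT libraries and from 14991250 to 16474784 in the sph/sph libraries. Letters A to C name the libraries of a group in column order. The A columns of the 2 genotypes share an identification number in their headers within each treatment, whose meaning is not given in the sources used here, and B and C share none. Library sph/sph C stood apart from its group: its correlation over genes (log2 CPM, Pearson) was 0.871 with A and 0.888 with B, against 0.966 between A and B. In C, Cxcl9 was at 12.8 CPM (counts relative to the scaled library size), against 788 in A and 683 in B and a mean of 25.4 ± 21.2 CPM (SD, n = 3) in sph/sph mice given saline. Cd40 in C, at 41.2 CPM, lay between the sph/sph saline mean of 12.8 ± 1.03 CPM (SD, n = 3) and the 116 and 111 CPM of A and B. Whether the animal of library C received the antibody as labelled cannot be told from these values, and every sph/sph mean under anti-CD40 includes it. Library A of every group held 0 counts from Y-linked genes although the labels describe males, and the other 8 libraries held 2436 to 4055. For many lists and genes values are therefore given below also without sph/sph C and without the 4 libraries that lacked Y-linked counts. Of 160 genes named by a rule given with the processing, 39 lost their call without these 4 libraries and 5 without sph/sph C. Among the 39 were Il10, Cd83, Maff, Jun, Ccnd2, Bnip3, Dhcr7, Ncr1, Mpo, Tinagl1 and Gja4.

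The genotype difference under anti-CD40 was broad. Of 13844 genes tested, 1598 were higher in sph/sph (11.5%) and 857 lower (6.19%), at a Benjamini-Hochberg adjusted p under 0.05 by edgeR's quasi-likelihood test. "Rose" and "fell" below refer to calls under that test, sph/sph against WT. The shares of all genes, 11.5% higher and 6.19% lower, are the background for every list count below. Among the calls, 1081 rises and 642 falls were 2-fold or larger, and 328 rises and 231 falls were 8-fold or larger. The 3 and 3 libraries did not overlap in 2369 of the 2455 called genes, and 28.4% of all tested genes did not overlap in one direction or the other. Under saline the same genotypes gave 222 higher (1.6%) and 60 lower (0.433%).

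The number of calls depended on single libraries. Without sph/sph C, 1893 genes were higher and 1515 lower. Without the 4 libraries that lacked Y-linked counts, 879 were higher and 295 lower. Leaving out WT C gave 954 higher and 401 lower and leaving out WT B gave 1014 higher and 526 lower. Without sph/sph A there were 565 lower, and without sph/sph B 491. A fit of only the 6 anti-CD40 libraries called 494 higher and 241 lower.

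**Figure D1:**
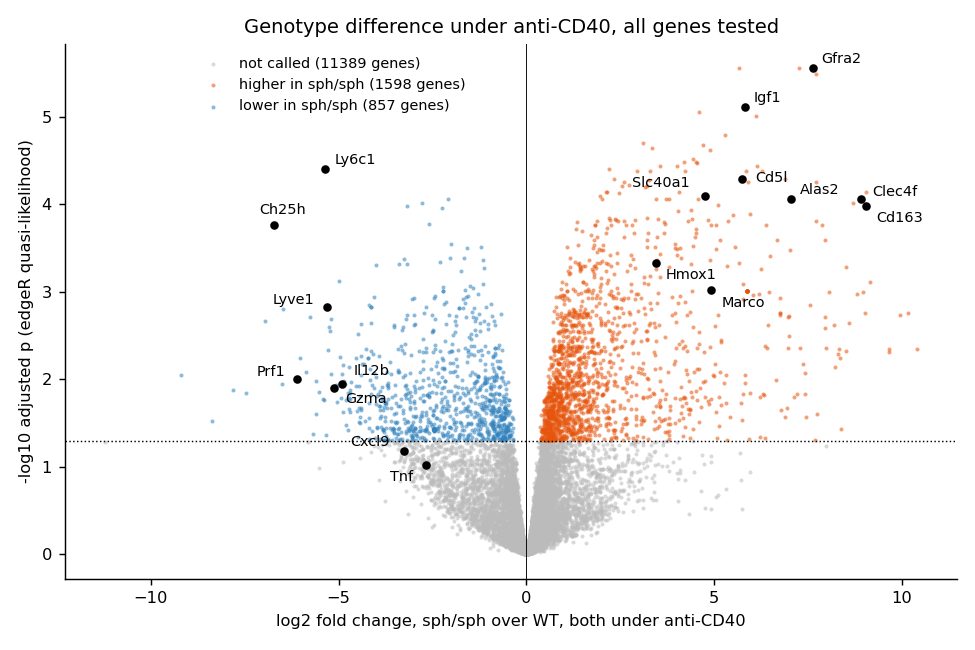
Log2 fold change of sph/sph over WT under anti-CD40 (x axis) against -log10 of the adjusted p (y axis) for the 13844 genes tested, 1 point a gene; orange points were called higher, blue lower, and the dotted line marks an adjusted p of 0.05. Cd163, Clec4f and Alas2 lie far to the right, Ch25h and Prf1 far to the left, and Tnf and Cxcl9 lie just under the line.

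Heme breakdown and iron export were higher in sph/sph. Hmox1 (ENSMUSG00000005413, GRCm38 chr8:75093621-75100589), heme oxygenase 1, was at 933, 533 and 1082 CPM in WT A, B and C, against 8920, 13120 and 6047 CPM in sph/sph A, B and C. Every sph/sph library lay above every WT library, with C the lowest of the 3. The log2 fold was 3.46 ± 0.41 (SE) with an adjusted p of 0.000469. Hmox1 stood at 1455 ± 496 CPM (SD, n = 3) in WT and 10940 ± 592 CPM in sph/sph under saline, and the interaction of genotype and treatment was not called (0.55, adjusted p = 0.628).

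Slc40a1 (ENSMUSG00000025993, chr1:45908068-45926523), the iron exporter ferroportin, was at 135, 67.3 and 179 CPM in the WT libraries and 2758, 3977 and 3519 CPM in the sph/sph libraries. Library C was within the range of the other sph/sph libraries here. The log2 fold was 4.75 ± 0.41 (adjusted p = 8.1e-05). Under saline the genotypes stood at 5987 ± 1183 and 6084 ± 1276 CPM, and the interaction was called (4.73, adjusted p = 0.000869).

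Slc48a1, which carries heme out of the phagolysosome, was at 83.1, 62.0 and 56.3 CPM in WT and 631, 847 and 499 CPM in sph/sph (log2 fold 3.29 ± 0.25, adjusted p = 4.2e-05). The iron-recycling macrophage factor Spic was at 39.6, 18.9 and 31.5 CPM in WT and 385, 453 and 157 CPM in sph/sph (3.46 ± 0.42, adjusted p = 0.000556). The groups did not overlap for either gene, and C was the lowest sph/sph library for both. Hfe, a regulator of iron sensing, rose by 3.49 on the log2 scale (adjusted p = 0.00024), and Tfrc, the transferrin receptor, by 1.95 (adjusted p = 0.00502). Without the 4 libraries that lacked Y-linked counts the call of Tfrc was lost (1.77, adjusted p = 0.094).

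Enzymes that make heme and that reduce its breakdown product rose. The biliverdin reductases Blvra and Blvrb rose by 1.78 and 1.79, and Fech, which inserts iron into protoporphyrin to form heme, by 2.16 on the log2 scale. Ncoa4, the receptor that delivers ferritin to the lysosome, rose by 1.39. Fth1, the ferritin heavy chain, was at 8119, 4269 and 3431 CPM in WT and 13060, 12700 and 3389 CPM in sph/sph. Its groups overlapped, with C at the WT level, and it was not called (0.88, adjusted p = 0.245). It was called in the fit without sph/sph C (1.30, adjusted p = 0.0257).

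Of 39 tested genes of heme and iron handling, 14 rose (35.9%, against 11.5% of all genes), 1 fell and 24 were not called. Their median log2 fold was 0.87, beside 0.08 over all tested genes. The rises numbered 18 without sph/sph C, and without the 4 libraries lacking Y-linked counts 12 rose. The gene that fell was Pcbp1, an iron chaperone (-0.65, adjusted p = 0.0489). That call was lost when any of 10 single libraries was left out: the 6 saline libraries, the 3 WT libraries under anti-CD40 or sph/sph B.

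Receptors that bind haemoglobin, modified lipid and other debris rose in part. Cd163 (chr6:124304656-124330527), the receptor for haemoglobin bound to haptoglobin, was at 1.13, 0.21 and 0.246 CPM in WT and 99.3, 315 and 388 CPM in sph/sph (9.04 ± 0.81, adjusted p = 0.0001). Marco (chr1:120474538-120505024), a scavenger receptor with a collagen-like stalk, was at 476, 274 and 710 CPM in WT and 16800, 21800 and 5734 CPM in sph/sph (4.92 ± 0.65, adjusted p = 0.000965). The 2 genes differed in their saline background: Cd163 averaged 2432 ± 629 CPM (WT) and 614 ± 178 CPM (sph/sph), whereas Marco averaged 654 ± 339 CPM (WT) and 11330 ± 1728 CPM (sph/sph). The interaction was called for Cd163 (11.03, adjusted p = 0.000272) and not for Marco (0.81, adjusted p = 0.634).

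In all, 10 of 19 tested scavenger receptor genes rose (52.6%) and 3 fell (15.8%), with a median of 1.15. Beside Cd163, Marco and Cd5l the rises were Colec12 (4.07), Mrc1 (2.35), Scarb1 (2.02), Lrp1 (2.00), Cd36 (1.67), Msr1 (1.48) and Cd68 (1.15). Olr1, a receptor for oxidised low-density lipoprotein, fell from 47.4, 67.8 and 100 CPM in WT to 2.07, 3.40 and 1.29 CPM in sph/sph (-5.00 ± 0.63, adjusted p = 0.000759). Stab1 and Scarf1, receptors also made by sinusoidal endothelium, fell by 2.04 and 1.33. The count of rises was 9 without sph/sph C, 8 without the 4 libraries lacking Y-linked counts and 6 without WT B.

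Receptors for dying cells were divided. Of 28 tested, 8 rose (28.6%) and 4 fell (14.3%), with a median of 0.11. Timd4, a receptor for phosphatidylserine, was at 66.5, 6.51 and 23.5 CPM in WT and 478, 756 and 300 CPM in sph/sph (3.99 ± 0.71, adjusted p = 0.0044). Axl and Mertk, receptor kinases for Gas6 and protein S, rose by 1.27 and 1.25, and Sirpa, the receptor for the CD47 signal on intact cells, by 1.25. Itgb5 (3.47) and Havcr2 (2.64) also rose. Itgax (CD11c), Mfge8, Pros1 and Tyro3 fell, Itgax from 997, 250 and 271 CPM to 68.6, 40.5 and 13.2 CPM (-3.64 ± 0.70, adjusted p = 0.0064). Without WT B, WT C, sph/sph A or sph/sph B, 1 of the 4 falls was called, and without sph/sph C 6 genes fell.

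Kupffer cell identity genes had the highest share of rises among the macrophage gene lists. Clec4f (ENSMUSG00000014542, chr6:83644542-83656187), a C-type lectin of Kupffer cells, was at 2.93, 2.41 and 7.53 CPM in WT and 828, 1601 and 3869 CPM in sph/sph. The lowest sph/sph library, A, lay far above the highest WT library, and C was the highest of all 6. The log2 fold was 8.93 ± 0.77 (adjusted p = 8.8e-05), which is 486-fold. Under saline Clec4f averaged 10030 ± 304 CPM (WT) and 7696 ± 1834 CPM (sph/sph), and the interaction was called (9.31, adjusted p = 0.000426).

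Vsig4, the complement receptor of the immunoglobulin family on Kupffer cells, was at 7.05, 0.21 and 0.542 CPM in WT and 604, 985 and 1804 CPM in sph/sph (8.80 ± 1.19, adjusted p = 0.00105). Adgre1, which encodes the F4/80 protein used for the enrichment, was at 173, 51.4 and 39.8 CPM in WT and 1178, 2237 and 1101 CPM in sph/sph (4.10 ± 0.56, adjusted p = 0.00113). WT A was the highest of the WT libraries for both genes and still below every sph/sph library. The macrophage genes Csf1r, the receptor for colony stimulating factor 1, and Cd68 rose as well (2.79 and 1.15), while Lyz2 did not pass (-0.42, adjusted p = 0.52) and stood at 5850 to 10520 CPM in WT and 2607 to 8652 CPM in sph/sph. Clec4f, Vsig4 and Cd163 were thus near 0 in the WT libraries, and Lyz2 was not. Other genes of the Kupffer cell list were not near 0 in WT either, with means of 487 CPM for Marco, 153 CPM for Cd5l and 127 CPM for Slc40a1.

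Cd5l, a secreted protein of resident macrophages, was at 136, 82.9 and 241 CPM in WT and 7471, 9990 and 7327 CPM in sph/sph (5.75 ± 0.45, adjusted p = 5.1e-05). C6, a component of the membrane attack complex, rose by 5.97, the folate receptor Folr2 by 4.32, the growth factor receptor Gfra2 by 7.63 and the lectin Clec1b by 2.92 on the log2 scale. Pcolce2 was at 0.472 to 0.997 CPM in WT and 77.5 to 138 CPM in sph/sph, and its log2 fold of 7.26 ± 0.32 was among the most precise (adjusted p = 2.8e-06). Cd207 (langerin) differed from these under saline. It was at 0.0525 to 0.246 CPM in WT and 13.4 to 64.5 CPM in sph/sph under anti-CD40 (7.72, adjusted p = 0.000157), and at 1324 ± 195 and 86.1 ± 6.5 CPM under saline (-3.94, adjusted p = 0.00641).

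Of 40 tested Kupffer cell identity genes, 25 rose (62.5%, against 11.5% of all genes) and 3 fell, with a median log2 fold of 3.10. Without sph/sph C, 25 rose again, and without the 4 libraries that lacked Y-linked counts 27 rose. Over the 12 fits that each left out a library, between 24 and 27 rose. The 3 that fell were Lyve1 and Dnase1l3, which liver endothelium also makes, and the lysosomal sulfatase Arsb. Lyve1 went from 296, 349 and 838 CPM in WT to 4.49, 17.2 and 15.9 CPM in sph/sph (-5.30 ± 0.77, adjusted p = 0.0015). Cdh5, Id1 and Id3, 3 listed genes that endothelium expresses too, were not called.

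**Figure D2:**
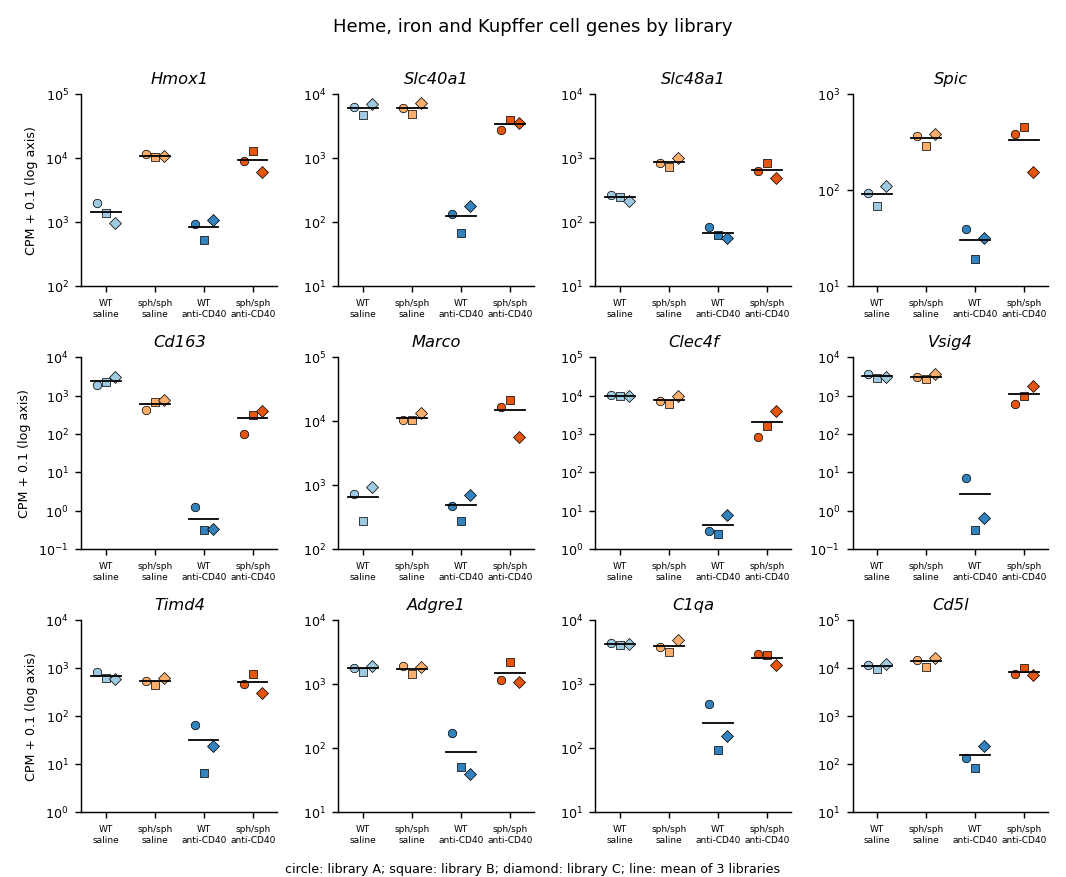
CPM plus 0.1 on a log axis for 12 heme, iron and Kupffer cell genes in the 12 libraries, by group; symbols give the library letter and lines the mean of 3 libraries. Under anti-CD40 the 3 sph/sph libraries lie above the 3 WT libraries in every panel, and Clec4f falls from 10030 CPM in WT under saline to under 8 CPM in WT under anti-CD40.

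Transcription factors of the Kupffer cell program showed smaller differences. Rxra, the partner of LXR alpha, rose by 1.81 (adjusted p = 0.000514). Nr1h3, which encodes LXR alpha, was at 330, 127 and 148 CPM in WT and 864, 786 and 306 CPM in sph/sph (1.69, adjusted p = 0.0235). Its groups overlapped at WT A and sph/sph C, and its call was lost without WT B (adjusted p = 0.0833), WT C (0.0932), sph/sph A (0.0709) or sph/sph B (0.0663). Irf8 fell by 1.37 and Bhlhe40 by 1.38. In all, 7 of 40 factors rose (17.5%, against 11.5% of all genes) and 4 fell (10.0%, against 6.19%), with a median of 0.16.

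Complement and Fc receptor genes included large rises. The C1q chains C1qa, C1qb and C1qc, which start the classical pathway, rose by 3.40, 3.88 and 4.05. C1qa was at 487, 95.7 and 156 CPM in WT and 2967, 2850 and 1996 CPM in sph/sph, with no overlap. The activating IgG receptors Fcgr4 (3.11), Fcgr1 (2.34) and Fcgr3 (1.78) rose, as did C3ar1 (3.56) and the properdin gene Cfp (1.59). Of 30 tested genes 10 rose (33.3%) and 2 fell (6.67%), with a median of 0.41. The rises numbered 11 without sph/sph C, 10 without the 4 libraries lacking Y-linked counts and 5 without WT B.

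Targets of NRF2, the factor that answers oxidative and heme stress, rose in part. Of 44 tested, 17 rose (38.6%, against 11.5%) and 0 fell by edgeR, and the median log2 fold was 0.90. Without sph/sph C 26 rose and 2 fell, and without the 4 libraries lacking Y-linked counts 16 rose. Mgst1, a membrane glutathione transferase, was at 47.1, 47.9 and 36.2 CPM in WT and 186, 191 and 199 CPM in sph/sph (2.13 ± 0.18, adjusted p = 7.2e-05). Gclm, the regulatory subunit of glutathione synthesis, was at 63.3, 36.0 and 48.7 CPM in WT and 167, 273 and 128 CPM in sph/sph (1.94 ± 0.28, adjusted p = 0.00136). Me1, malic enzyme 1, which makes NADPH, was at 4.52, 1.63 and 3.05 CPM in WT and 27.0, 52.2 and 24.8 CPM in sph/sph (3.50 ± 0.47, adjusted p = 0.00102). The libraries of the 2 groups were apart for all 3 genes. Gstm1 (2.32), Ephx1 (4.22), Cat (1.79), Gpx1 (1.51) and G6pdx (1.42) also rose.

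Other members of the list stood near the threshold or below 0. Nqo1 ranged from 1.97 to 2.31 CPM in WT, from 2.97 to 4.84 CPM in sph/sph, and was not called (0.90, adjusted p = 0.0774). Srxn1 was not called (0.59, adjusted p = 0.321), and both were called without sph/sph C (1.07 with adjusted p = 0.034, and 0.96 with 0.0292). DESeq2 called Nqo1 with all libraries (adjusted p = 0.0296). Slc7a11, the cystine importer, was at 122, 63.7 and 35.3 CPM in WT and 18.2, 36.4 and 0.054 CPM in sph/sph (-2.02, adjusted p = 0.279).

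The promoters of Gclm, Mgst1 and Me1 are shown because these 3 members rose and hold the core of the antioxidant response element, TGACNNNGC, the motif that NRF2 and small MAF proteins bind. Each window runs from 250 bases before to 50 bases after a start of the gene (RefSeq, GRCm38.p6). It is given 5′ to 3′ on the strand of the gene, with the match in capitals. Mgst1 and Me1 have 2 windows each, of which the 1 with the match is shown. In Gclm and Mgst1 the match is on the opposite strand.
Gclm, chr3:122245307-122245606, plus strand: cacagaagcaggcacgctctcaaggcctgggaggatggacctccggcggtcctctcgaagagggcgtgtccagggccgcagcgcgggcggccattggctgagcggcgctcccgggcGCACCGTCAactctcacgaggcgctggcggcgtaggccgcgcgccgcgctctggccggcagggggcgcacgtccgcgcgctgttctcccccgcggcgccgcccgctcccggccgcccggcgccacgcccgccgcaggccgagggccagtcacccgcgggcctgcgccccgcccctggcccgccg
Mgst1, chr6:138140277-138140576, plus strand: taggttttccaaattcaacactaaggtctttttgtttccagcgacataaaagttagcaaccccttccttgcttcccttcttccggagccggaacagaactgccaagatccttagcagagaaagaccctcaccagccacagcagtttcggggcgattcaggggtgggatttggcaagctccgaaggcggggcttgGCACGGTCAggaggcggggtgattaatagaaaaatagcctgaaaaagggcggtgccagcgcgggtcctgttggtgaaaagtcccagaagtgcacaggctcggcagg
Me1, chr9:86695865-86696164, minus strand: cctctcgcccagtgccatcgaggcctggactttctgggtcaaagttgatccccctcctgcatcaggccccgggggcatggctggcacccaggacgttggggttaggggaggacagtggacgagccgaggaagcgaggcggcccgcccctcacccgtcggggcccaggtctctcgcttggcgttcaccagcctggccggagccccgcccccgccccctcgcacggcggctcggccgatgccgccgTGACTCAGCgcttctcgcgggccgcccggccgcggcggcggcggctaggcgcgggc

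The core was searched on both strands and overlaps AP-1 sites (TGACTCA) where its middle letters allow, as in Me1. It was found in 12.4% of the 32851 promoter windows and, counted by gene, in 14% of the 27025 genes with a window. Among NRF2 list members with a window it was found in 5 of 14 that rose and in 10 of 24 that were not called. It was 1 of 9 motifs searched over 8 lists. Of all windows, GAGGAAGT, a PU.1 site, was in 3.20%. The GATA site AGATAA was in 11.2%. For the KLF site CCACACCC the share was 3.56%, and for the AP-1 site TGACTCA it was 5.20%. The STAT site TTCNNNGAA was in 8.30% and GATTAA in 7.43%. The MAF recognition element was found in 0.155% and the NF-kB site in 4.79%. The antioxidant core was chosen for display after that search, and the matches are descriptions of sequence.

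Genes of lipid handling and of the lysosome rose in part. Of 45 genes of LXR and lipid handling, 23 rose (51.1%) and 3 fell (6.67%), with a median of 0.82. Pltp, the phospholipid transfer protein, was at 64.5, 41.6 and 44.3 CPM in WT and 424, 625 and 724 CPM in sph/sph (3.56 ± 0.26, adjusted p = 3.7e-05). The cholesterol exporter Abca1 (1.27), the apolipoproteins Apoe (1.69) and Apoc1 (2.72), lipoprotein lipase Lpl (2.10) and lysosomal acid lipase Lipa (1.75) rose, and Abcg1 was not called (0.40, adjusted p = 0.21). Trem2, a lipid receptor, was at 1.53, 0.262 and 0 CPM in WT and 8.29, 8.73 and 43.3 CPM in sph/sph (5.17, adjusted p = 0.00818). The rises numbered 23 without sph/sph C, 16 without the 4 libraries lacking Y-linked counts, and 13 without WT B or WT C.

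Ch25h (ENSMUSG00000050370, chr19:34473778-34475164), the enzyme that makes 25-hydroxycholesterol, moved opposite to these. It was at 115, 258 and 335 CPM in WT and 1.45, 3.48 and 1.83 CPM in sph/sph. All 3 sph/sph libraries lay within a few CPM of each other and C was not the lowest. The log2 fold was -6.72 ± 0.66 (adjusted p = 0.000172), a 105-fold lower level, and Ch25h was at 0.208 ± 0.204 CPM in WT under saline. The interaction was called (-7.86, adjusted p = 0.00347). Of 26 genes of cholesterol synthesis 1 rose, Dhcr7 (0.93, adjusted p = 0.00419).

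Of 50 lysosomal genes 17 rose (34%) and 3 fell (6%), with a median of 0.62. Ctsf, a cathepsin, was at 1.40, 0.997 and 1.33 CPM in WT and 14.9, 15.8 and 30.1 CPM in sph/sph (4.03 ± 0.29, adjusted p = 3.7e-05). Acp5 (2.33), Man2b1 (2.19), Lgmn (2.15), Ctsb (1.75) and Ctsd (1.11) rose. The falls were Arsb (-2.17), Arsa and Cd63. The count of rises was 18 without sph/sph C, 12 without the 4 libraries lacking Y-linked counts, 11 without WT B or sph/sph B and 10 without WT C.

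Inflammatory cytokine genes were lower in sph/sph in number, and several of the best known did not pass. Tnf was at 638, 118 and 157 CPM in WT and 44.8, 94.8 and 2.91 CPM in sph/sph. The groups did not overlap, but sph/sph B lay close to WT B, and the log2 fold of -2.68 ± 1.00 was not called (adjusted p = 0.095). Nos2, inducible nitric oxide synthase, was at 1144, 79.1 and 98.8 CPM in WT and 38.5, 35.9 and 0.378 CPM in sph/sph (-4.15, adjusted p = 0.0683). WT A was highest and sph/sph C lowest for both genes. Ptgs2, cyclooxygenase 2, had the same extremes, 384, 65.7 and 70.7 CPM in WT and 12.4, 58.6 and 0 CPM in sph/sph (-2.88, adjusted p = 0.178). DESeq2 called Tnf (adjusted p = 0.0157) and Nos2 (0.0154), and limma-voom called them at 0.0493 and 0.0453.

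Il12b, the shared chain of IL-12 and IL-23, was at 112, 30.4 and 30.4 CPM in WT and 1.86, 3.85 and 0.162 CPM in sph/sph (-4.90 ± 1.06, adjusted p = 0.0113). It was one of 7 of 30 cytokine genes that fell, with Ifng, Inhba, Csf1, Edn1, Lif and Tnfsf10, while Il18 (3.55, adjusted p = 0.000678) and Vegfa (1.41, adjusted p = 0.04999) rose, the call of Vegfa lost in 10 of the 12 fits that each left out a library. The call of Inhba was lost in 6 of these fits (adjusted p up to 0.162). The list's median was -1.37, with 23.3% of its genes lower and 6.67% higher. The falls numbered 8 without sph/sph C, and without the 4 libraries lacking Y-linked counts 3 fell and Il12b was not called (adjusted p = 0.113). Leaving out WT saline C, WT A, sph/sph A or sph/sph B gave 4 falls each. Il1b was at 325, 150 and 68.1 CPM in WT and 138, 250 and 16.5 CPM in sph/sph, Il6 at 3.54 to 18.6 and 0.54 to 11.6 CPM, and neither was called (adjusted p = 0.748 and 0.626).

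Il10, the anti-inflammatory cytokine, divided the sph/sph libraries. It was at 3.12, 3.78 and 2.17 CPM in WT and at 54.9, 54.1 and 1.35 CPM in sph/sph, so that A and B were far above and C below every WT library. It was called (3.60 ± 0.98, adjusted p = 0.0299), and more precisely without sph/sph C (4.18, adjusted p = 0.000174). The call was lost without WT A (adjusted p = 0.0683), WT B (0.08), WT C (0.108), sph/sph A (0.0724) or sph/sph B (0.0739). It was lost also without the 4 libraries lacking Y-linked counts (0.22), in the fit of only the 6 anti-CD40 libraries (0.146) and in the test against a 1.5-fold change (0.0563). By limma-voom Il10 was not called either (2.18, adjusted p = 0.436). In mice given saline Il10 averaged 3.08 ± 0.58 CPM (WT) and 3.37 ± 1.51 CPM (sph/sph).

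More chemokines fell than rose. For Cxcl9 and Cxcl11 library C again lay far below sph/sph A and B, but unlike for Il10 all 3 lay below every WT library. Cxcl9, a ligand of CXCR3 induced by interferon-gamma, was at 3973, 3813 and 6311 CPM in WT and 788, 683 and 12.8 CPM in sph/sph (-3.25 ± 1.09, adjusted p = 0.0667). DESeq2 called it with all libraries (adjusted p = 0.00314). Without sph/sph C edgeR called it at a smaller fold (-2.67, adjusted p = 0.0158). Cxcl10 (adjusted p = 0.19) and Ccl2 (0.0833) were called only in that fit among those that left out 1 library (-1.50 with 0.0364, and -2.05 with 0.00376). With all libraries Ccl2 was called by DESeq2 (adjusted p = 0.0122) and limma-voom (0.0399). Cxcl11 fell from 289, 263 and 426 CPM to 25.1, 18.9 and 0.378 CPM (-4.47 ± 0.98, adjusted p = 0.0119), but not without the 4 libraries lacking Y-linked counts (adjusted p = 0.0893). Ccl24, an eosinophil attractant of resident macrophages, rose by 3.27 and Ccl6 by 2.50, the call of Ccl24 lost without WT C (adjusted p = 0.058) and that of Ccl6 without WT B (0.0748). Of 27 chemokines 2 rose (7.41%) and 6 fell (22.2%), with a median of -1.31, and 4 rose and 10 fell without sph/sph C. Without the 4 libraries lacking Y-linked counts 2 rose and 2 fell.

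The receptor itself and its signalling genes were lower. Cd40 was at 740, 235 and 232 CPM in WT and 116, 111 and 41.2 CPM in sph/sph (-2.17 ± 0.50, adjusted p = 0.0158). Traf1, an adaptor and target of CD40 signalling, was at 904, 305 and 251 CPM in WT and 120, 73.4 and 25.0 CPM in sph/sph (-2.74 ± 0.63, adjusted p = 0.015). WT A was the highest library for both, and the groups did not overlap. The NF-kB subunits Nfkb1 (-0.54) and Nfkb2 (-1.05), the ubiquitin ligase Birc2 (-1.45), the inhibitor Tnip1 (-1.55) and Cd83 (-1.65) fell. The call of Cd83 was lost in 6 of the 12 fits that each left out a library (adjusted p up to 0.115). Nfkbia was not called (-0.80, adjusted p = 0.119). In all 9 of 41 genes fell (22%) and 0 rose by edgeR, with a median of -0.71. The falls numbered 10 without sph/sph C, 5 without WT A or WT C, and 2 without the 4 libraries lacking Y-linked counts, where Cd40 was not called (-1.61, adjusted p = 0.0779).

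Genes of the interferon-gamma response fell in part. Of 46 tested, 2 rose (4.35%) and 10 fell (21.7%), with a median of -1.14, and without sph/sph C 4 rose and 18 fell. Without the 4 libraries lacking Y-linked counts 1 rose and 6 fell. The 2 rises were Fcgr1 and Ifngr1, and their number ranged from 1 to 4 as single libraries were left out. Socs1 went from 37.6, 48.8 and 58.7 CPM to 14.2, 2.74 and 1.78 CPM (-2.96, adjusted p = 0.013), Upp1 from 243, 333 and 418 CPM to 54.2, 21.7 and 5.34 CPM (-3.62, adjusted p = 0.00864), and Il12rb1 fell by 3.26. Irf1 (-1.11, adjusted p = 0.114) and Cd274, the ligand of PD-1 (-0.98, adjusted p = 0.298), were not called. Among 48 genes induced by type I interferon 2 fell (4.17%), Ifi44 (-2.60) and Bst2 (-1.55), and 0 rose by edgeR. The share of falls was below that of all genes (6.19%), but 41 of the 48 log2 folds were negative, with a median of -0.46. The 3 and 3 libraries did not overlap for 14 of the 48, all lower, beside 11.7% lower over all genes. Without WT C neither Ifi44 nor Bst2 was called (adjusted p = 0.0587 and 0.102). The call of Bst2 was lost also without some other single libraries, so that between 0 and 3 of the list fell.

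Genes of antigen presentation were mostly lower. Of 29 MHC class I genes 9 fell (31.0%, against 6.19% of all genes), 0 rose by edgeR, and the median was -0.67. H2-Q7, a non-classical class I molecule, was at 718, 586 and 662 CPM in WT and 155, 80.1 and 126 CPM in sph/sph (-2.44 ± 0.43, adjusted p = 0.00404). H2-Q4 (-1.88) and H2-Q6 (-2.52) fell with it, and C lay among the other sph/sph libraries for H2-Q7. These genes are near-identical copies, and how reads shared between them were counted is not given in the sources used here. The classical H2-K1 fell by 1.22 and the peptide transporter chain Tap2 by 1.48, and H2-D1 was not called (-0.85, adjusted p = 0.0814). The falls numbered 8 without sph/sph C, 5 without the 4 libraries lacking Y-linked counts and 4 without WT C. Without WT A 2 genes of the list rose and without sph/sph C 1 rose.

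Of the 13 MHC class II genes 10 were lower, none of them called by edgeR, with a median of -1.14. Under saline 4 genes of this list were called lower in sph/sph, and the median was -1.30. The summed level averaged 16970 CPM (WT) and 4419 CPM (sph/sph) under saline, and 15420 and 7760 CPM under anti-CD40. H2-Aa was at 4261, 1483 and 1852 CPM in WT and 885, 655 and 857 CPM in sph/sph (-1.66, adjusted p = 0.0875), H2-Ab1 at 3665, 1378 and 1694 and at 848, 583 and 631 CPM (-1.71, adjusted p = 0.0757). The groups did not overlap for either gene, and DESeq2 called both (adjusted p = 0.021 and 0.0153). Cd74, the invariant chain, was not called (-1.18, adjusted p = 0.201). Ciita, the class II transactivator, was at 348, 128 and 187 CPM in WT and 48.0, 32.2 and 128 CPM in sph/sph (-1.67, adjusted p = 0.0715), and it was called without sph/sph C (-2.45, adjusted p = 0.0123). With all libraries Ciita was called by DESeq2 (adjusted p = 0.015) and limma-voom (0.0411). In this list 0 fell by edgeR, 4 were lower at an unadjusted p under 0.05 and 4 fell by DESeq2, and 5 fell by edgeR without sph/sph C. March1, a ubiquitin ligase that removes class II from the surface, rose from 52.8, 42.5 and 22.8 CPM to 174, 250 and 209 CPM (2.42 ± 0.29, adjusted p = 0.000463).

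**Figure D3:**
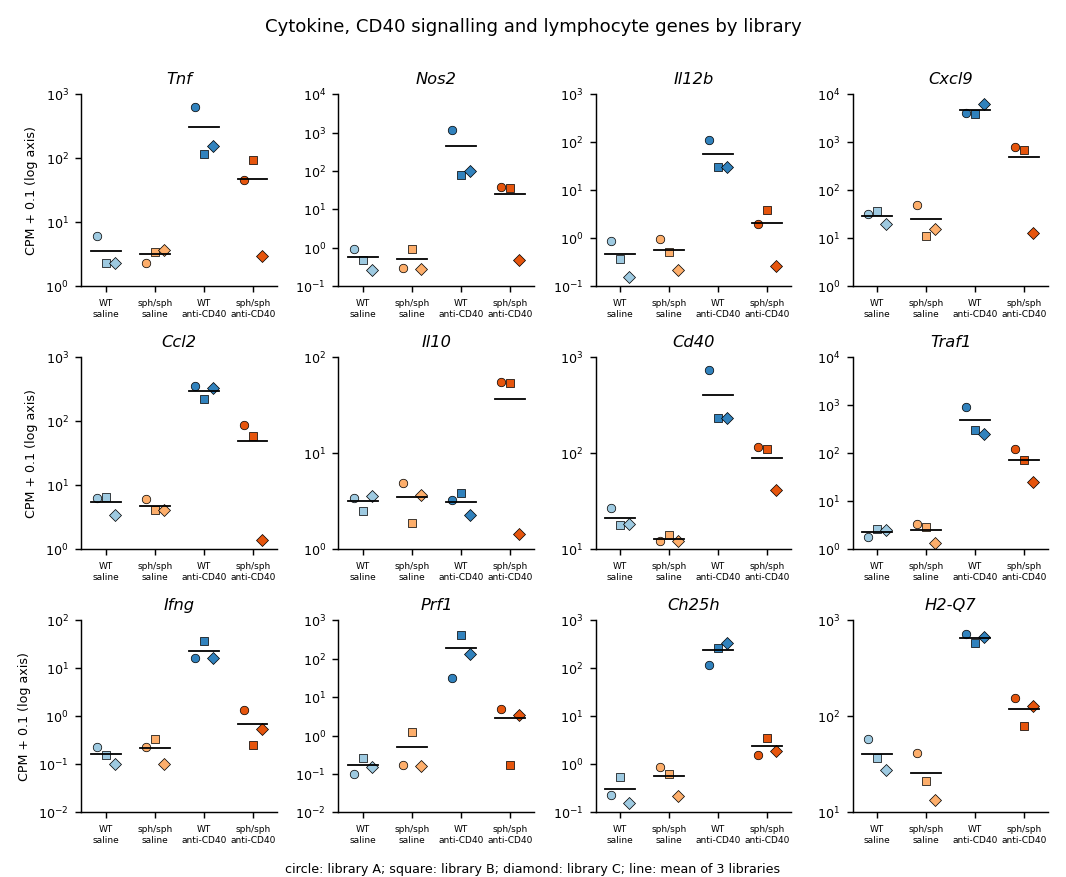
CPM plus 0.1 on a log axis for 12 cytokine, CD40 signalling, class I and lymphocyte genes in the 12 libraries, by group; symbols give the library letter and lines the mean of 3 libraries. Library C of sph/sph under anti-CD40 lies at or below the saline level for Tnf, Nos2, Cxcl9, Ccl2 and Il10, whereas Ch25h and H2-Q7 have its value among those of A and B.

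Pattern recognition genes rose in 10 of 32 cases (31.2%). Tlr8, an endosomal sensor of RNA, was at 8.58, 4.51 and 3.50 CPM in WT and 62.2, 102 and 108 CPM in sph/sph (4.04 ± 0.37, adjusted p = 0.00012). The lectin Clec4n (2.27), the RP105 partner Ly86 (1.85), Tlr4 (1.11) and Tlr7 (0.88) rose. In this list 1 gene fell (3.12%), and the median was 0.37. The rises numbered 12 without sph/sph C, 7 without the 4 libraries lacking Y-linked counts, 5 without WT B or sph/sph B and 6 without WT C.

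Genes of alternative activation did not move as one. Igf1, a growth factor of resident and alternatively activated macrophages, was at 4.52, 6.40 and 3.20 CPM in WT and 230, 220 and 348 CPM in sph/sph (5.82 ± 0.32, adjusted p = 7.9e-06). Arg1 was at 196, 15.2 and 11.8 CPM in WT and 40.7, 24.4 and 64.0 CPM in sph/sph and was not called (-0.79, adjusted p = 0.617), and its sign turned without WT A (1.68, adjusted p = 0.083). Gpnmb was not called (1.49, adjusted p = 0.139). Of 38 tested genes 11 rose (28.9%) and 6 fell (15.8%), with a median of -0.14, and several of the rises (Cd163, Ccl24, Folr2) are also Kupffer cell genes. Without the 4 libraries lacking Y-linked counts 7 rose and 1 fell.

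Among 40 monocyte genes 5 rose and 2 fell, a share close to that of all genes, with a median of -0.08. Ly6c2 was at 486, 468 and 230 CPM in WT and 360, 141 and 31.1 CPM in sph/sph, Ccr2 at 113, 174 and 70.7 and at 101, 72.1 and 17.8 CPM, and neither was called (adjusted p = 0.391 and 0.411). Ly6c1, which endothelium and lymphocytes also express, fell from 38.8, 46.5 and 63.2 CPM to 1.93, 0.814 and 0.863 CPM (-5.36 ± 0.40, adjusted p = 4e-05). Cd300e, a receptor of patrolling monocytes, rose by 4.49 (adjusted p = 0.000236). Without WT B 3 genes of the list rose.

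Genes of glycolysis and hypoxia rose in 11 of 41 cases (26.8%) and fell in 1 (2.44%), with a median of 0.50. Under saline 7 of the list rose, and the median was 0.95. Ddit4 was at 16.8, 55.1 and 43.8 CPM in WT and 196, 206 and 408 CPM in sph/sph (2.81, adjusted p = 0.00723), and Bnip3, a mitophagy receptor, rose by 1.58. Hif1a itself fell, from 458, 328 and 365 CPM to 127, 157 and 74.7 CPM (-1.68 ± 0.25, adjusted p = 0.00154). The count of rises was 23 without sph/sph C, 7 without WT A, 5 without WT C, 6 without sph/sph B and 5 without the 4 libraries lacking Y-linked counts. Of 40 respiratory chain genes Sdha alone was called (0.54, adjusted p = 0.0241). Its call was lost without WT B, WT C, sph/sph A or sph/sph B (adjusted p from 0.0569 to 0.0895) and without the 4 libraries (0.133), which left the list without a rise in each of these fits, while 12 rose without sph/sph C.

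Costimulatory and checkpoint genes moved in both directions, with 5 of 24 higher (20.8%) and 4 lower (16.7%) and a median of 0.13. Nectin2, a ligand of TIGIT and DNAM-1, fell from 76.8, 91.9 and 134 CPM to 32.1, 36.2 and 19.5 CPM (-1.79 ± 0.26, adjusted p = 0.00152), and Pvr, which binds the same receptors, fell by 1.40 (adjusted p = 0.0111). Havcr2, Sirpa and Vsig4 were among the rises, which numbered 3 without WT C. Of 44 cell cycle genes 4 rose (9.09%) and 1 fell (2.27%), both under the shares of all genes (11.5% and 6.19%), with a median of 0.51. Tk1, thymidine kinase, was at 13.2, 34.8 and 17.2 CPM in WT and 119, 86.8 and 53.5 CPM in sph/sph (1.99 ± 0.39, adjusted p = 0.00734), and Ccnd2, cyclin D2, fell by 2.51 (adjusted p = 0.014). Without the 4 libraries lacking Y-linked counts 0 of the cell cycle genes were called by edgeR (Tk1 at 1.44, adjusted p = 0.0942), and without WT C or sph/sph A 1 gene rose. Of 20 genes of arginine and nitric oxide metabolism 2 rose (10%) and 2 fell (10%). Of 38 genes of the integrated stress and unfolded protein responses 1 rose (2.63%) and 1, Atf4 (-0.67, adjusted p = 0.0284), fell (2.63%). The call of Atf4 was lost in 5 of the 12 fits that each left out a library (adjusted p up to 0.103), and that of Ccnd2 without sph/sph B (0.0516). The lists of arginine metabolism and stress responses changed by over 1.5 times as single libraries were left out, from 1 to 5 rises and 0 to 4 falls for the first and from 0 to 1 rises and 0 to 2 falls for the second.

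Genes that respond to tissue dissociation, such as Jun, Egr1, Egr2 and Maff, fell in 10 of 35 cases (28.6%) and rose in 0 by edgeR, with a median of -1.07. Jun was at 110, 118 and 220 CPM in WT and 61.4, 66.0 and 34.8 CPM in sph/sph (-1.46, adjusted p = 0.0128). The falls numbered 8 without sph/sph C, 6 without WT A or WT C and 2 without the 4 libraries lacking Y-linked counts. The call of Maff was lost in 6 of the 12 fits that each left out a library (adjusted p up to 0.098). Of 31 matrix protease genes 6 rose (19.4%) and 8 fell (25.8%), with a median of -1.55. Mmp27 was at 0 to 0.2 CPM in WT and 19.5 to 62.1 CPM in sph/sph (8.70, adjusted p = 9.7e-05), and the inhibitor Timp1 fell from 7.85, 12.9 and 14.5 CPM to 0.345, 0.887 and 0.432 CPM (-4.40, adjusted p = 0.00235). The falls numbered 11 without sph/sph C, 4 without WT B or without the 4 libraries lacking Y-linked counts, and 5 without sph/sph A or B.

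Markers of other cell types moved with the genotype as well. Of 42 erythroid markers 32 rose and 0 fell by edgeR, with a median of 5.05, and their summed level was 1578 to 2009 CPM in WT and 6706 to 19170 CPM in sph/sph. Globin transcripts made up 0.00331% to 0.0189% of counts in WT and 0.481% to 1.49% in sph/sph. Alas2, the erythroid enzyme that opens heme synthesis, was at 4.66, 2.47 and 1.38 CPM in WT and 377, 594 and 144 CPM in sph/sph (7.05 ± 0.61, adjusted p = 8.8e-05). Precursor genes rose too: Gata1 by 5.32, Klf1 by 6.98 and Epor by 4.52. Rhag had 1 count in the 3 WT libraries together and 1185 in the sph/sph libraries, a ratio of 1390 (95% exact counting interval 248 to 54800). Such intervals, here and below, cover counting error only and not the spread between mice. The list rose in 33 cases without sph/sph C and in 27 without the 4 libraries lacking Y-linked counts, and 28 of its genes rose under saline. The heme, iron and NRF2 lists moved with these markers, and the part of erythroid RNA in them was not tested.

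T and NK cell markers were lower. Their summed level was 827, 4276 and 1811 CPM in WT A, B and C and 327, 184 and 467 CPM in sph/sph. Prf1, perforin, was at 30.5, 422 and 132 CPM in WT and 4.91, 0.074 and 3.35 CPM in sph/sph (-6.12 ± 1.28, adjusted p = 0.00998). Gzma (-5.11), Xcl1 (-5.76), Ncr1 (-4.80) and Ifng (-5.24), products of NK and cytotoxic T cells, fell. Ifng was at 16.2, 37.0 and 16.5 CPM in WT and 1.24, 0.148 and 0.432 CPM in sph/sph (adjusted p = 0.00277), with no overlap. Of 50 markers 23 fell (46%) and 0 rose by edgeR, with a median of -2.88. The falls numbered 44 without sph/sph C, 13 without sph/sph B, 11 without WT C, 9 without sph/sph A, 6 without the 4 libraries lacking Y-linked counts and 5 without WT B. Without WT B or sph/sph A Ncr1 was not called (adjusted p = 0.0722 and 0.0552). The interferon-gamma response genes moved with these markers, whose part in them was not tested.

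Endothelial genes were lower in sph/sph and highest in WT C. Their summed level was 5256, 8850 and 14050 CPM in WT and 1417, 2270 and 5199 CPM in sph/sph. Plvap (-3.42), Icam2 (-2.12), Egfl7 (-2.93), Mmrn2 (-3.68), Sele (-3.83) and Lyve1 fell, while the defining genes Pecam1 (-0.95, adjusted p = 0.182) and Cdh5 (-0.69, adjusted p = 0.208) were not called. Of 32 markers 7 fell (21.9%) and 1, Vwf, rose (3.12%), with a median of -2.13. The falls numbered 20 without sph/sph C, 4 without WT B, 3 without sph/sph A, sph/sph B or the 4 libraries lacking Y-linked counts, and 1 without WT C. The call of Mmrn2 was lost in 9 of the 12 fits that each left out a library, 5 of which left out a saline library (adjusted p up to 0.133), and that of Sele without WT C (0.0636). Vwf was not called without WT A (adjusted p = 0.0574) or WT B (0.0772). Several of the largest falls of all, Tinagl1 (-4.87), Gja4 (-4.82) and Tbx2 (-4.88), had the same order of libraries, with WT C highest and WT A lowest among the WT libraries.

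Gene groups of other leukocytes gave fewer calls. B and plasma cell markers summed to 451 to 1311 CPM in WT and to 730, 333 and 7048 CPM in sph/sph A, B and C. Of 29, 3 rose (Bank1, Blnk and Cd22), which is 10.3%, under the 11.5% of all genes. The list's median log2 fold was 1.62 under anti-CD40 and 1.29 under saline. Cd22 was not called without sph/sph C (adjusted p = 0.0513), WT A (0.0708) or WT B (0.0945). Eosinophil, basophil and mast cell markers summed to 69.2, 194 and 323 CPM in WT and 375, 634 and 758 CPM in sph/sph. Of 15, 7 rose (46.7%) and 1, Kit, fell (6.67%), with a median of 3.39. Under saline 2 of this list rose, and the median was 3.90. Without any of 8 single libraries Kit was not called. Ccr3, the eotaxin receptor, was at 0.333, 0.682 and 0.542 CPM in WT and 84.0, 139 and 157 CPM in sph/sph (7.89 ± 0.78, adjusted p = 0.000174). Siglecf, a defining surface marker of eosinophils, was at 0.577 to 0.864 CPM in WT and 1.70 to 2.91 CPM in sph/sph (1.62, adjusted p = 0.00932). Prg2 rose by 7.37 (adjusted p = 0.00671), and Epx went from 3 counts in WT to 958 in sph/sph, a ratio of 373 (95% exact counting interval 127 to 1810).

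Granulocyte markers summed to 653 to 1241 CPM in WT and 317 to 615 CPM in sph/sph. The list's median was -0.60, with 14.8% higher and 18.5% lower, and under saline the median was 1.35. Among 27, 4 rose and 5 fell: the primary granule genes Mpo, Elane and Ctsg were higher, Mpo at 0.133, 1.42 and 0.935 CPM in WT and 17.9, 4.29 and 168 CPM in sph/sph (6.21, adjusted p = 0.0161), and Cxcr2, a receptor of mature neutrophils, was lower (-3.94, adjusted p = 0.0148). Without WT C none of the 4 rises was called (Mpo adjusted p = 0.0636) and without WT B 2 were, and Cxcr2 was not called without WT B (0.0555). Dendritic cell markers summed to 1809 to 2651 CPM in WT and 933 to 1245 CPM in sph/sph. Of 26, 3 rose (11.5%, the share of all genes) and 5 fell (19.2%), and 13 fell without sph/sph C. Zbtb46, a factor of classical dendritic cells and endothelium, fell from 59.2, 79.3 and 94.2 CPM to 5.67, 8.14 and 11.5 CPM (-3.20 ± 0.49, adjusted p = 0.00202), and Fscn1, of mature dendritic cells, fell by 3.05 (adjusted p = 0.0371), a call lost in 6 of the 12 fits that each left out a library. The count of dendritic cell falls was 3 or fewer without WT A, WT B, WT C, sph/sph B, sph/sph saline A or any of the WT saline libraries. Class II, costimulation and chemokine genes moved with these sums, whose part in them was not tested.

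**Figure D4:**
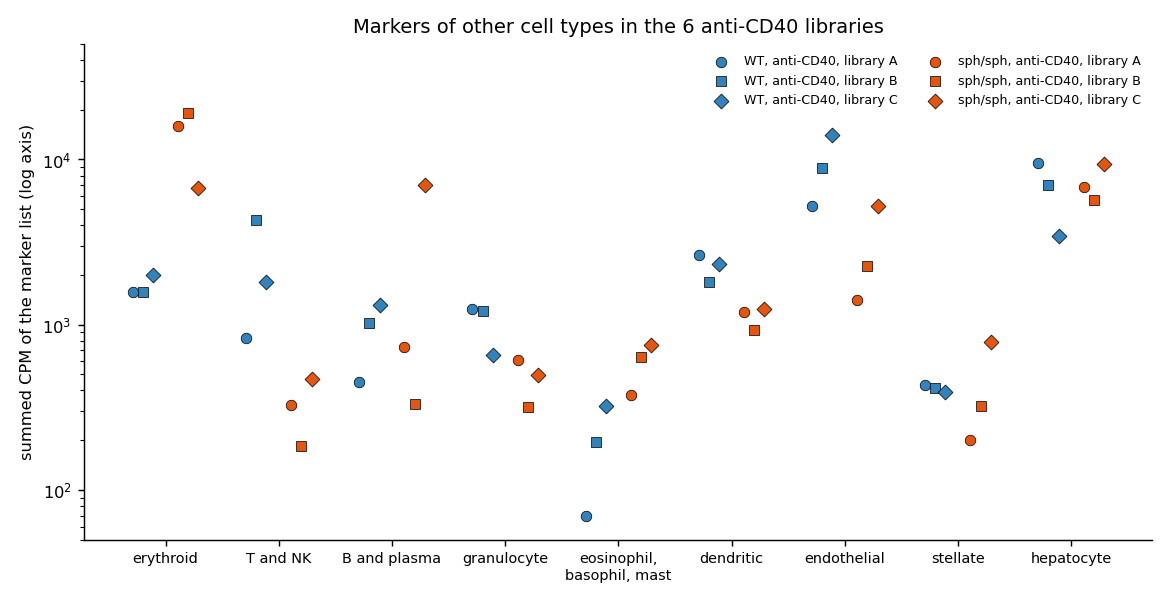
Summed CPM (log axis) of the markers of 9 other cell types in each of the 6 anti-CD40 libraries; blue is WT, orange sph/sph, and symbols give the library letter. Erythroid sums and those of eosinophils, basophils and mast cells are apart and higher in sph/sph. T and NK cell, granulocyte, dendritic cell and endothelial sums are apart and lower. The endothelial sums are barely apart, with 5199 CPM in sph/sph C and 5256 CPM in WT A. The B and plasma cell sum reaches 7048 CPM in sph/sph C.

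The hepatocyte sums of the groups overlapped: they were 3463 to 9517 CPM in WT and 5714 to 9437 CPM in sph/sph. Of 40 markers 3 rose (7.5%, under the 11.5% of all genes), with between 1 and 5 rising as single libraries were left out. Of 29 stellate cell markers 2 rose (6.9%) and 1 fell (3.45%), and neither rise was called without WT A, WT B, WT C, sph/sph C or the 4 libraries lacking Y-linked counts. Without sph/sph C 3 stellate cell markers fell. Of 6 cholangiocyte markers 0 were called by edgeR, 2 were lower at an unadjusted p under 0.05 and 1 fell by DESeq2. Of 23 megakaryocyte markers 3 rose (13%), 2 of which, Clec1b and Vwf, are shared with Kupffer cells or endothelium, and the number of rises ranged from 1 to 5 as single libraries were left out.

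**Figure D5:**
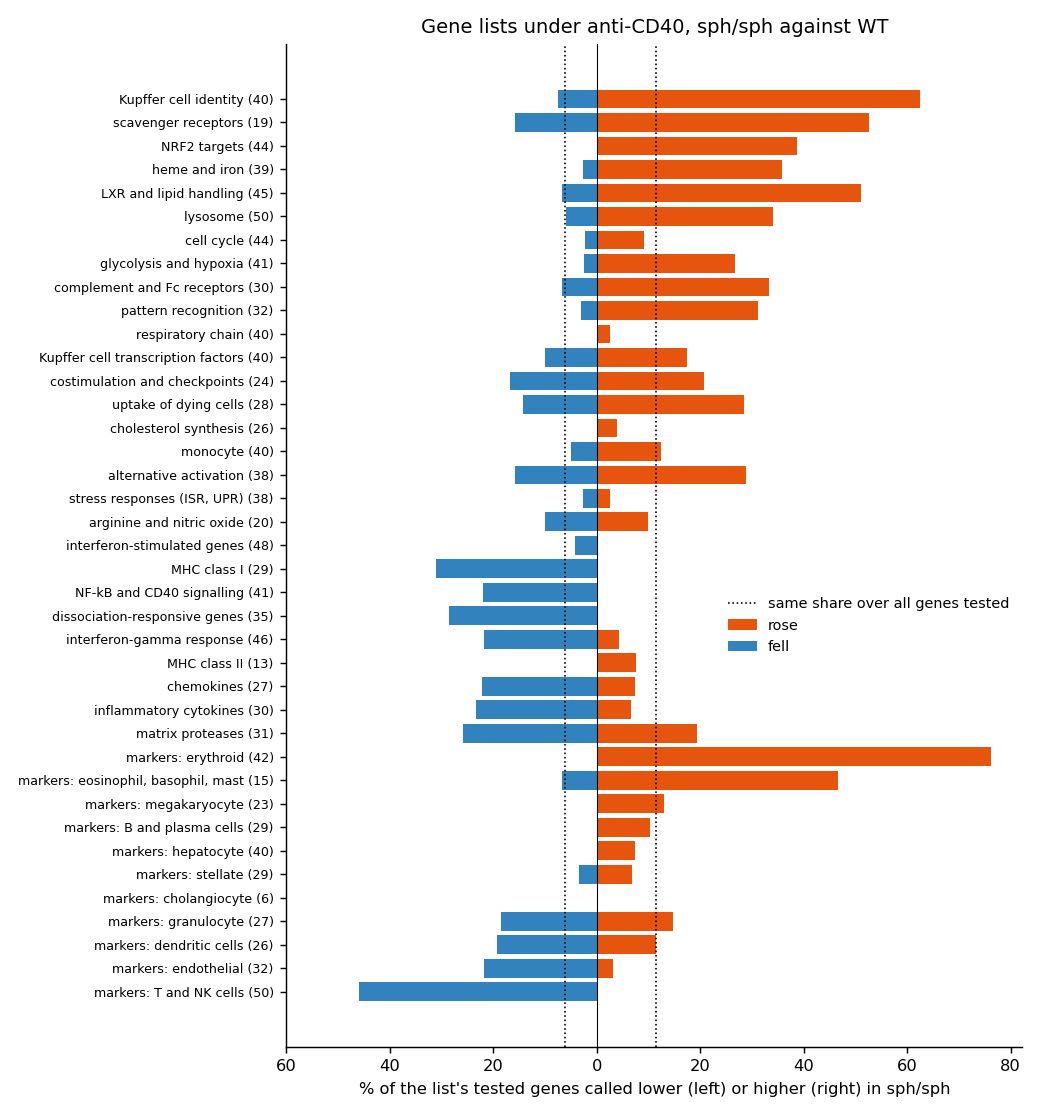
Share of each list's tested genes called higher (orange, right) or lower (blue, left) in sph/sph under anti-CD40, with the number tested in parentheses; dotted lines mark the 11.5% and 6.19% of all tested genes. Kupffer cell identity (62.5% rose) and erythroid markers (76.2% rose) reach farthest to the right, and T and NK cell markers (46.0% fell) farthest to the left.

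In 15 cases a list had 0 calls in a direction by edgeR. At an unadjusted p under 0.05 were 4 lower class II genes, 2 lower NRF2 targets, 2 higher class I genes and 2 lower cholangiocyte markers. The same held for 1 higher type I interferon gene, 1 higher dissociation gene, 1 lower hepatocyte marker and 1 lower megakaryocyte marker. The number was 0 in the other 7 cases, which were higher NF-kB and CD40 genes, higher T and NK cell markers, higher cholangiocyte markers, and lower genes of cholesterol synthesis, the respiratory chain, erythroid cells, and B and plasma cells. DESeq2 called 4 class II genes, 2 NRF2 targets, 1 cholangiocyte, 1 hepatocyte and 1 megakaryocyte marker, all lower, and 0 in the other 10 cases. With limma-voom 2 class II genes and 1 megakaryocyte marker were called lower, and 0 genes in the other 13 cases.

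The largest rises with 50 CPM or more in sph/sph included genes of little-described function in macrophages. Tmc3, of the transmembrane channel-like family, was at 0.2, 0.157 and 0.0492 CPM in WT and 67.4, 122 and 30.9 CPM in sph/sph (9.06 ± 0.75, adjusted p = 7.2e-05). Chp2 had 2 counts in the WT libraries together and 2778 in the sph/sph libraries, a ratio of 1620 (95% exact counting interval 449 to 13400). Most of the sph/sph counts came from C (135 CPM, against 9.95 and 9.76 CPM in A and B). The log2 fold of Chp2 was 10.18 in the fit of all libraries and 7.79 without sph/sph C, a difference that the counting interval does not cover. The potassium channel gene Kcnj16 had a like order, 11.2, 20.8 and 138 CPM in sph/sph (8.05, adjusted p = 0.00102). Ccdc148 was at 0.266 to 0.472 CPM in WT and 58.9, 64.3 and 122 CPM in sph/sph (7.71 ± 0.38, adjusted p = 3.3e-06).

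The genotype difference under saline contrasts the 6 saline libraries, in a fit that shares its estimate of the spread with the anti-CD40 libraries. Of the 1598 genes higher under anti-CD40, 154 were also called higher under saline, which is 9.64% of the former and 69.4% of the 222 called under saline. Of the 857 lower genes 23 were also lower under saline, which is 2.68% of the former and 38.3% of the 60 under saline. The genes called in both included Hmox1, Marco, Slc48a1 and Alas2. In the interaction 595 genes were called (4.3%). This is the test of whether the 2 genotype differences differ, and in it 440 genes were more positive under anti-CD40 (3.18%) and 155 more negative (1.12%). Of 160 genes named by the rule given with the processing, 50 were called in the interaction, 40 with a more positive and 10 with a more negative difference under anti-CD40. Most of the 160 were taken for large calls under anti-CD40, so that number follows in part from the choice.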

How the data were processed

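The deposited file is a table of raw read counts per gene, which the authors made with STAR 2.7.0e, SAMtools 1.9 and featureCounts on GRCm38.p5, per the submitters' processing notes. How reads were assigned to strand, or divided between near-identical genes, and which annotation was used is not given in the sources used here. RNA came from F4/80-enriched liver cells and a stranded kit, per the labels' protocols. Each group has 3 mice per the design text.

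Genes were filtered with filterByExpr and scaled by TMM. All 12 libraries were fitted together with 1 mean per group in edgeR 4.0.16 (R 4.3.3, quasi-likelihood, robust), with Benjamini-Hochberg adjustment over 13844 genes and a threshold of 0.05. The SE is the log2 fold divided by the root of F. The script was tested on simulated counts. Intervals on counts cover counting error only. Symbols were matched for 25587 of 25700 identifiers, and coordinates are those of GRCm38.

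The comparison, its 39 gene lists and the named genes were chosen with earlier results of these data known. Named genes were the 12 largest called rises and falls with no overlap and 50 CPM or more in the higher group, without predicted genes, up to 4 called members of each list with 10 CPM or more, and anchor genes such as Hmox1, Clec4f and Tnf. Some genes that this rule takes are not reported here. Other genes were named after their values were seen. Alternatives were DESeq2 1.42.0 and its size factors, limma-voom (limma 3.58.1), no filter on low counts, the 6 anti-CD40 libraries alone, a term for the libraries without Y-linked counts, their removal, a test against a 1.5-fold change, and leaving out each library. Counts for lists under these settings were added after seeing the data.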

Additional observations from a re-analysis of the deposited data

Results flagged for a closer look

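In 50 of the 160 named genes the genotype difference under anti-CD40 differed from that under saline by edgeR's test of the interaction, with adjusted p-values up to 0.0474. Over all genes tested 595 were called (4.3%), 440 more positive (3.18%) and 155 more negative (1.12%). Most named genes were taken for a large called difference under anti-CD40, which the interaction contains. Their number and its division by direction therefore follow in part from that choice. Values are the log2 fold of sph/sph over WT under anti-CD40 minus that under saline. The fitted value of Chp2 rests on 2 counts in the WT libraries under anti-CD40 and depends on the prior count.

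The difference was more positive under anti-CD40 in 40 genes. Kupffer cell identity, complement and scavenger genes were Cd207 (11.66), Cd163 (11.03), Clec4f (9.31), Vsig4 (8.85), C6 (6.37), Gfra2 (6.29), Fabp7 (5.76), Cd5l (5.46), Folr2 (4.98), Timd4 (4.34), Adgre1 (4.13), C1qc (4.16), C1qb (3.98), Ccl24 (3.98), C1qa (3.52) and Clec1b (3.02). Iron, heme, lipid, lysosome and detoxification genes were Slc40a1 (4.73), Ctsf (4.80), Ephx1 (4.22), Pltp (4.09), Hfe (3.73), Man2b1 (2.44) and Slc48a1 (1.48). Receptors, regulators and growth factors were Igf1 (5.60), Cd300e (4.84), Tlr8 (4.30), Itgb5 (3.80), Bank1 (3.51), Havcr2 (2.38), Ly86 (2.31), March1 (2.27) and Rxra (1.85). Cell cycle genes were Kif23 (2.59) and Tk1 (2.28). Other genes were Chp2 (10.72), Tmc3 (8.69), Mmp27 (7.60), Kcnj16 (7.44), Ccdc148 (6.86) and Ccr3 (5.05). Among these, Cd207 was higher in sph/sph under anti-CD40 and lower under saline.

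In 10 genes the difference was more negative under anti-CD40: Ch25h (-7.86), Gzma (-7.12), Olr1 (-6.81), Sele (-6.11), Timp1 (-5.50), Ly6c1 (-4.59), Tnip1 (-1.93), Nectin2 (-1.77), Hif1a (-1.56) and Atf4 (-1.05). Ch25h, an oxysterol enzyme, and Olr1, a lipoprotein receptor, lay at the head of this group with Gzma, a granzyme of cytotoxic lymphocytes. No group of this comparison had 4 or more libraries, so single outlying libraries were not tested.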

How the results depend on the processing

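The anti-CD40 calls depended on which libraries entered the fit. Calls higher in sph/sph were 1598 in the edgeR fit, 494 in the fit of only the 6 anti-CD40 libraries, 879 without the 4 libraries that lacked Y-linked counts, 750 in the test against a 1.5-fold change, and between 954 and 1893 when single libraries were left out. Calls lower were 857, and 241, 295 and 341 in the first 3 of these settings, 1473 by DESeq2, and between 401 and 1515 when single libraries were left out. Under saline, leaving out single libraries gave between 61 and 383 calls higher and between 12 and 156 lower. Of the called rises and falls, 30.9% and 27.4% were still called in the 6-library fit, 50.4% and 32% without the 4 libraries, 58.5% and 45% without WT C, 61.1% and 57.9% without WT B, 79.8% and 55.2% without sph/sph A, 72.8% and 51.8% without sph/sph B, and 88.7% and 86.1% without sph/sph C.

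Directions turned in 3 named genes, none of them called. Il1b was at 0.30 without the 4 libraries lacking Y-linked counts, 0.31 without WT A and 0.12 without sph/sph C. Il6 was at 0.38 without the 4 libraries and 0.29 without WT A. Arg1 was at 0.36 by limma-voom, 1.72 without the 4 libraries and 1.68 without WT A. Over the fits that each left out a library, Il1b ranged from -1.23 to 0.31, Il6 from -1.76 to 0.29 and Arg1 from -1.29 to 1.68. The cause was not tested. Of the 160 named genes, 151 kept direction and side of the threshold under DESeq2, 135 under limma-voom, 102 in the 6-library fit and 118 without the 4 libraries. No paired analysis was possible because the columns of the count table carry none of the labels' replicate numbers, and the genotypes share 1 header number within each treatment, that of library A. A term for the libraries without Y-linked counts, which are the A libraries, gave 1581 higher and 935 lower. Precision is limited by 3 libraries a group.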

Other observations

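In 9 genes the genotype difference was called in opposite directions under the 2 treatments, which share no library. Cd9 and Cd63, tetraspanins of membrane and endosome, were lower in sph/sph under anti-CD40 and higher under saline. Cd9 was at 96.8, 102 and 94.6 CPM in WT and 61.4, 62.5 and 63.7 CPM in sph/sph under anti-CD40 (log2 fold -0.64 ± 0.12, edgeR adjusted p = 0.00466), and at 15.9 ± 0.98 and 74.2 ± 10.2 CPM under saline (SD, n = 3; 2.22, edgeR adjusted p = 4.2e-05). Il12rb2, the second chain of the IL-12 receptor, had the same pattern (-2.23 and 3.31), as did Cd63 (-1.57 and 2.41).

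Adamdec1, a metalloprotease of tissue macrophages, had the opposite pattern. It was at 2.79, 1.73 and 1.28 CPM in WT and 32.6, 43.3 and 59.1 CPM in sph/sph under anti-CD40 (4.55 ± 0.32, edgeR adjusted p = 3.3e-05), and at 386 ± 61.4 and 98.6 ± 9.2 CPM under saline (-1.97, edgeR adjusted p = 0.00665). Cd207 did likewise, as did Kif7 (1.39 and -1.08), Itpripl1 (0.86 and -0.57), Ganc (0.82 and -0.96) and Ctc1 (0.66 and -0.77).

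Outside the lists, Kcnj10, a potassium channel gene, was among the most precise rises, at 2.73, 2.78 and 2.41 CPM in WT and 140, 142 and 120 CPM in sph/sph (5.66 ± 0.27, edgeR adjusted p = 2.8e-06). Under saline it stood at 241 ± 79.8 and 216 ± 22.9 CPM.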
